A study of Botryllus schlosseri with 78 samples.

Results

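FcoR72 is 1 of 69 transcripts named FcoR in an expression table of 137 allorecognition transcripts of the colonial tunicate Botryllus schlosseri. It was chosen by its value and its share of the FcoR sum, which are the highest of the FcoR transcripts in most libraries, so its abundance and its place in the order of levels are given as a description with no test. Each value is read as a TMM-scaled TPM, that is, an abundance per transcript length scaled between libraries, and the share of FcoR72 is its value as a percent of the sum over the 69 FcoR rows of a library. Differences between conditions were tested on log2(value + 1) with limma across every transcript of the table that passed a filter on low values, and FcoR72 passed that filter in each comparison. The adjusted p (Benjamini-Hochberg) runs over all transcripts tested, with a threshold of 0.05, and log2 differences are followed by their standard error (SE).

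Botryllus colonies that grow into contact meet at their ampullae, the bulb-shaped tips of blood vessels that reach the edge of the shared tunic, and then either fuse into a chimera or reject each other. The outcome depends on the Fuhc locus: colonies that share an allele fuse, and colonies that share none reject. Fester and uncle fester are membrane proteins of the ampullae and blood cells that take part in this reaction. The FcoR transcripts were found, per the series record, through sequence searches that began with fester genes. The role of FcoR72 itself is not given in the sources used here, and its name matched no gene of the reference annotation, so no chromosome position or sequence is given.

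The 77 libraries with values comprised 5 libraries of vascular cells sorted with BSA, 16 of ampullae, 21 of male whole colonies, 12 of whole bodies, 3 of whole blood from 1 individual each, 8 of integrin alpha-6 (IA6) positive cells from 4 individuals, 4 of IA6-negative cells from 2 of these individuals, and 4 each of ALDH-positive and ALDH-negative cells from 4 individuals. The ampullae came from the colonies SMGO and SMH and from 3 lines, SB825-FDA, SB825-FEA and SB825-FX, with 3 replicates each. In SMGO, 1 of the 3 replicates is the mean of a pair of libraries labelled technical. The whole bodies came from SKI, SMGO, SMH and SB825, again with 3 replicates each. The male colonies were of the genotypes MADM, MDR and M001, with 1 library at each of the stages A1, A2, B1, B2, C1, C2 and D of the blastogenetic cycle, the weekly cycle in which a generation of buds replaces the adult zooids at stage D. ALDH individuals 2B and 6 are labelled winner, and individuals 1 and 7 are labelled loser. The labels name no treatment, age or allele at the Fuhc locus, and they do not say whether replicates are separate colonies, pieces or RNA preparations, so the spread that p-values rest on is that of the libraries given, part of which may be technical. IA6 and ALDH activity are known from earlier work as features of candidate stem cells of this species. No markers of cell types are among the 137 transcripts, so tissues and sorted fractions are called by their labels, which could not be checked against defining markers.

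Values summed over the table to between 308919 and 1466577 per library, so a value comes near to a share of the 137 listed transcripts, and more of an abundant one means less of the rest. Read totals cannot be had from TPM, and library depth is therefore unknown. The BSA libraries SB07-09 and SB10-11 stand apart: only 7 and 11 of the 23 signalling and Fuhc rows are found in them, where each of the other 75 libraries holds all 23. FcoR72 is listed at 0 in both, and all FcoR rows are listed at 0 in SB07-09, so absence of FcoR72 cannot be told apart from a sparse library. The comparisons that hold BSA libraries are therefore given with and without these. How reads were divided among similar FcoR transcripts could change the value of FcoR72, and this was not tested.

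FcoR72 was above 0 in 75 of the 77 libraries and the highest FcoR in 67 of them. Outside the 2 BSA libraries at 0, it ranged between 10484 and 185743. Its share of the FcoR sum there ranged between 11.3% and 67.3%, and its share of the whole table between 1.22% and 14.4%. FcoR72 stood among the 10 highest transcripts of the table in 51 libraries, and it was the highest of all in 1 library, a whole body of SKI.

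Averaged over 32 means, 1 per sample class and colony or individual and without the 2 sparse BSA libraries, the value of FcoR72 was 42096. FcoR48, the next FcoR in order, averaged 11874, followed by FcoR12 at 5856 and FcoR1 at 4615. With the 2 sparse libraries kept, as 34 means, FcoR72 averaged 39619 and the next FcoR 11574. In the 32 means FcoR72 came sixth in the table, after Ras, Rac, BHF, Grb2 and ERK. Ras, Rac, Grb2 and ERK are signalling proteins that act below receptors in animals generally, and BHF is a product of the Fuhc locus. Of the FcoR transcripts, only FcoR72, FcoR1, FcoR3, FcoR4 and FcoR63 had a value of at least 1 in every one of the 32 means, and none did in all 34.

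FcoR72 varied more between groups than the summed rest of its family. Its 32 means spanned a 15.8-fold range, with an SD of 0.87 on the log2 scale. The sum of the other 68 FcoR rows spanned a 2.89-fold range, with an SD of 0.34 on the log2 scale. Single FcoR transcripts varied as much or more: the SD of log2 means was 0.87 for FcoR4, 1.19 for FcoR3, 1.82 for FcoR63 and 1.95 for FcoR1.

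**Figure D1:**
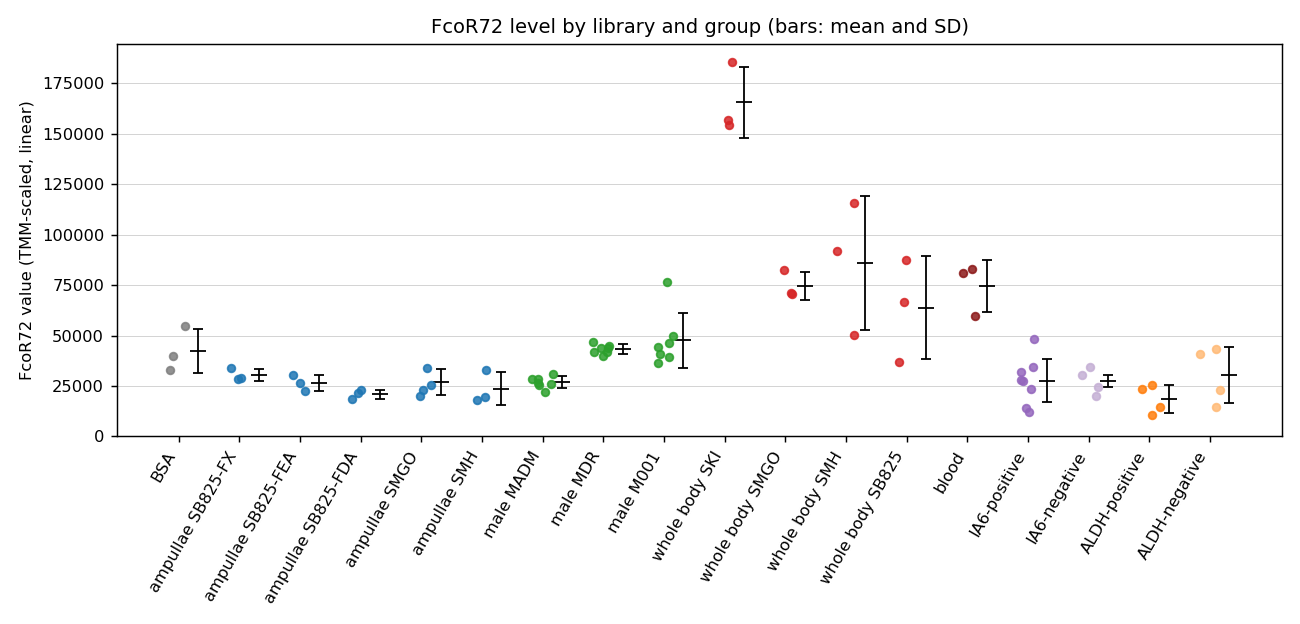
FcoR72 value (TMM-scaled, linear axis) of each library by group, with the mean and SD of each group beside its points. For SMGO ampullae and the IA6 groups, the mean and SD are over replicates or individuals, and the BSA libraries SB07-09 and SB10-11, both at 0, are not drawn. The 3 whole bodies of SKI lie between 154419 and 185743, above every other library, and the ampullae lie between 18303 and 33993.

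The highest levels were those of whole bodies and blood. The mean value was 165603 ± 17477 in whole bodies of SKI, 86112 ± 33152 in those of SMH, 74555 ± 6718 in those of SMGO, and 63784 ± 25476 in those of SB825 (SD, n = 3 each). In blood it was 74465 ± 13027 (SD, n = 3 individuals). Male colonies stood below these: the mean was 26815 ± 2908 in MADM, 43278 ± 2319 in MDR and 47589 ± 13439 in M001 (SD, n = 7 stages each).

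The vascular and sorted samples overlapped with the male colonies, and their means lay below those of whole bodies and blood. The 3 BSA libraries with FcoR72 averaged 42344 ± 11085 (SD, n = 3). Ampullae averaged 30599 ± 2950 in SB825-FX, 26926 ± 6311 in SMGO, 26531 ± 4047 in SB825-FEA, 23668 ± 8127 in SMH and 20831 ± 2278 in SB825-FDA (SD, n = 3 each). Sorted fractions averaged 27510 ± 10652 in IA6-positive cells (SD, n = 4), 27295 ± 2988 in IA6-negative cells (SD, n = 2), 18502 ± 7085 in ALDH-positive cells and 30425 ± 13848 in ALDH-negative cells (SD, n = 4 each). The highest mean, in whole bodies of SKI, was 8.95-fold the lowest, in ALDH-positive cells, and 5.45-fold to 7.52-fold under the other scalings tried. In the order of these 18 means, 15 of the 17 pairs of neighbours differed by less than the larger of their SDs. The exceptions were SKI against SMH whole bodies, and the BSA libraries against SB825-FX ampullae.

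**Figure D2:**
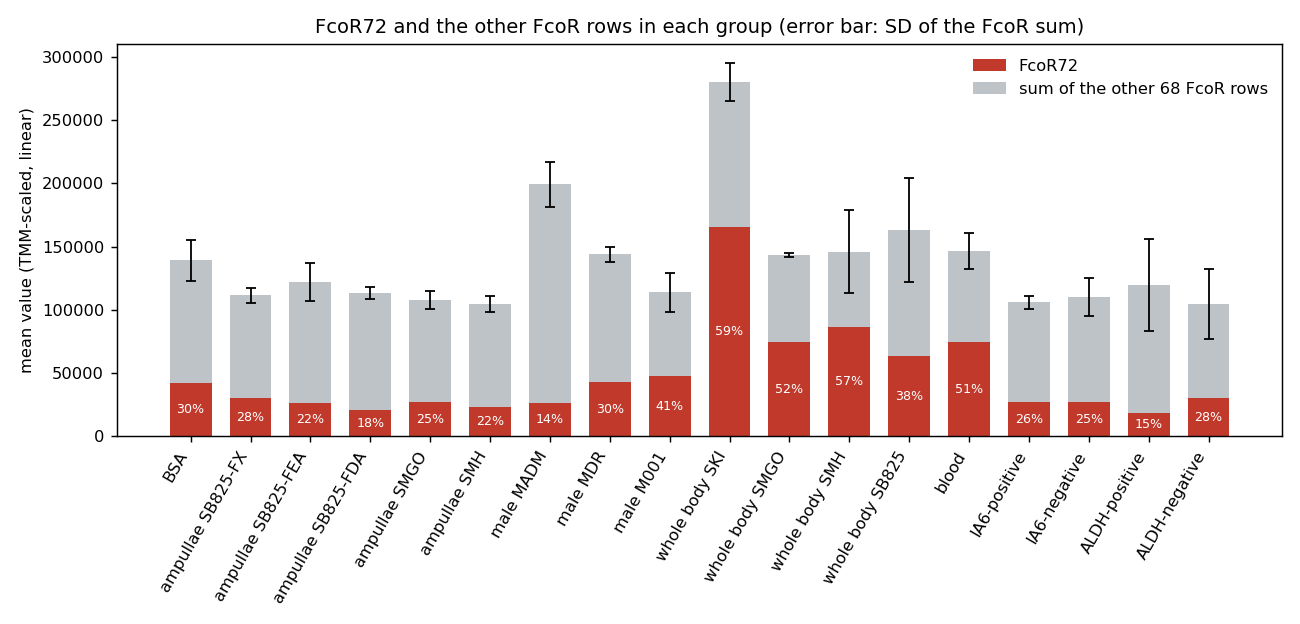
Mean value of FcoR72 and of the sum of the other 68 FcoR rows in each group (TMM-scaled, linear axis starting at 0), stacked, with the SD of the FcoR sum as the error bar and the mean share of FcoR72 printed in its bar. The BSA libraries SB07-09 and SB10-11 are left out. The share is highest in whole bodies of SKI and lowest in male MADM, where the other FcoR rows make the tallest grey bar.

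The share of FcoR72 in the FcoR sum followed a partly different order. It was 59.0% ± 2.97, 57.5% ± 10.6, 52.0% ± 4.17 and 38.1% ± 7.20 in whole bodies of SKI, SMH, SMGO and SB825, in that order, and 50.5% ± 4.25 in blood (SD, n = 3 each). It was 13.5% ± 1.73 in male MADM, the lowest of the 18 group means, 30.1% ± 1.81 in male MDR and 41.3% ± 5.55 in male M001 (SD, n = 7 each). Male MADM thus held the lowest share although its FcoR72 level lay above those of 4 groups. Its other FcoR rows summed to 172436 ± 17571 (SD, n = 7), the highest of all groups.

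In 10 libraries FcoR72 was not the highest FcoR. Those were IA6-positive 79C replicate 2, IA6-positive 79G replicate 2, ALDH-positive individuals 6 and 7, ampullae of SB825-FEA replicate 3, male MADM at stages C1, C2 and D, and the 2 BSA libraries at 0. FcoR48 was the highest in 6 of the 10. FcoR41 led at 30122 in male MADM stage C2 beside 25850 for FcoR72, and FcoR17 led at 26537 in male MADM stage D beside 21987. FcoR21 led at 10787 in ALDH-positive individual 6 beside 10484. By class mean, the second FcoR was FcoR48 in whole bodies, male colonies, ampullae, BSA-sorted and both IA6 fractions. It was FcoR18 in blood, FcoR12 in ALDH-positive cells and FcoR21 in ALDH-negative cells. The class mean of FcoR72 was 97514 in whole bodies beside 9542 for FcoR48, and 74465 in blood beside 11870 for FcoR18. However, FcoR48 ran from 0 to 28340 over whole-body genotypes, and from 241 to 17443 over ampullae sources. In single whole-body libraries, the highest other FcoR was FcoR48 only in SKI. It was FcoR5 in SB825, FcoR18 in SMGO, and FcoR18 or FcoR21 in SMH. In ALDH-positive cells the class mean of FcoR72 was 18502 beside 8462 for FcoR12, which ran from 0 to 26667 over individuals. That highest value, in individual 7, lay above FcoR72 at 25464. FcoR12 was the highest other FcoR in no single ALDH-positive fraction. That place went to FcoR21 in individuals 1 and 6, FcoR41 in 2B and FcoR48 in 7.

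Whole bodies of SKI had more FcoR72 than those of the other genotypes. SKI gave 185743, 156647 and 154419, and SMGO gave 70428, 82306 and 70931. SMH gave 115868, 92091 and 50377, and SB825 gave 66694, 87679 and 36978. SMH replicate 3, at 50377, also differed from the other SMH libraries in its receptors: 46 FcoR and 21 FF rows were found in it, against 36 and 39 FcoR and 13 and 15 FF rows in those. Its deposited column name is not numbered as a replicate, unlike those of the other SMH whole bodies. Whether it comes from the same colony was not tested. The 3 SKI libraries lay above all 9 others, while the values of SMGO, SMH and SB825 overlapped. Limma's F test across the 4 genotypes gave an adjusted p of 0.0164 for FcoR72. It called 86 of 110 transcripts, 78.2%, so FcoR72 was in the majority.

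Of the 6 pairs of genotypes, 3 passed for FcoR72, and each of these set SKI above another genotype. The difference was 1.46 ± 0.35 against SB825 (limma, adjusted p = 0.0068), a pair in which 54.5% of transcripts were called. It was 1.15 ± 0.35 against SMGO (limma, adjusted p = 0.0224), with 50.9% called, and 1.02 ± 0.35 against SMH (limma, adjusted p = 0.0378), with 54.5% called. The call against SB825 held in every alternative run. The other calls were less stable. Divided by the sum of the table, which moves all transcripts down by 0.35 against SMGO and 0.28 against SMH, they were lost at adjusted p = 0.0944 and 0.12 (limma), and relative to the signalling and Fuhc rows at 0.0734 and 0.137. Divided by the FF sum, the difference from SMH was 0.59 and was lost at adjusted p = 0.203 (limma). The call against SMGO was lost in 3 of 12 fits that left out 1 library, those without SKI replicate 1, SMGO replicate 1 or SMGO replicate 3, with an adjusted p of at most 0.0738 (limma). The call against SMH was lost in 9 of the 12, and held only without SMH replicate 1, SB825 replicate 2 or SB825 replicate 3. Without SMH replicate 3, the difference from SMH was 0.68 (limma, adjusted p = 0.114). The F test was lost without SKI replicate 1, at adjusted p = 0.0728 (limma). Of the other 61 FcoR transcripts tested between SKI and SB825, 17 were higher and 16 lower in SKI, where 30% of all transcripts were higher and 24.5% lower, and their median log2 difference was -0.14, beside 0 over all transcripts. The other FcoR rows summed to 114404 ± 2829 in SKI and 99129 ± 16668 in SB825 (SD, n = 3 each).

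FcoR72 did not pass the test among the 5 ampullae sources. It gave 29156, 33993 and 28649 in SB825-FX, and 26398, 30643 and 22551 in SB825-FEA. In SB825-FDA it gave 18329, 21376 and 22786. SMGO gave 33856 and 25411, with 19940 and 23081 in its technical pair, and SMH gave 18303, 19682 and 33019. All 3 SB825-FX values lay above all 3 of SB825-FDA, and the remaining sources overlapped with both. The F test gave an adjusted p of 0.257 (limma), where 61% of transcripts were called, and no pair passed. The widest pair, SB825-FX minus SB825-FDA, differed by 0.56 ± 0.23 (limma, adjusted p = 0.0905, with 9% of transcripts called). Without SMH replicate 3, which at 33019 lay far above the other SMH libraries, the F test passed at an adjusted p of 0.0389 (limma). SB825-FX was then above SMH by 0.68 and above SB825-FDA by 0.56, at adjusted p = 0.0205 and 0.0331 (limma). Of the 15 fits that left out 1 unit, only this 1 passed the F test, and the adjusted p ran up to 0.451 (limma). The library left out is extreme in FcoR72 itself, so these p-values are a description of the remaining libraries. The F test also passed with values divided by the sum of the FF rows, the fester family of receptors, at 0.0102. In that scaling SB825-FX was above SMH by 1.22, above SMGO by 1.11 and above SB825-FDA by 0.88, at adjusted p = 0.0037, 0.00713 and 0.0247 (limma).

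Ampullae held less FcoR72 than whole bodies of the same colonies. In SMGO the 3 ampullae replicates were 21510 for the averaged technical pair, 33856 and 25411, against 70428, 82306 and 70931 in whole bodies. In SMH they were 18303, 19682 and 33019 in ampullae, against 115868, 92091 and 50377 in whole bodies. The last of these is replicate 3, whose receptors differed from those of the other SMH whole bodies. In both colonies every ampullae value lay below every whole-body value. With colony as a block, the log2 difference was -1.66 ± 0.22 (limma, adjusted p = 0.000128), where 18.5% of the 81 transcripts tested were lower and 24.7% higher in ampullae. It was -1.49 ± 0.32 in SMGO (limma, adjusted p = 0.0061, with 23.7% called) and -1.83 ± 0.32 in SMH (limma, adjusted p = 0.00191, with 24.7% called). The effects of the colonies differed by 0.34 ± 0.45 (limma, adjusted p = 0.721, with 1.08% called). In tissue samples, fewer cells of a type and less RNA per cell cannot be told apart. Relative to the signalling and Fuhc rows, which moves all transcripts up by 0.26 in this comparison, the difference was -1.38, and divided by the FF sum, which moves them down by 0.36, it was -2.03; both passed.

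The other FcoR rows summed higher in ampullae. The sum of the other 68 FcoR rows averaged 81056 ± 2166 in ampullae and 64195 ± 6543 in whole bodies of SMGO and SMH (SD, n = 6 each), and no ampullae value fell below any whole-body value. Its log2 difference was 0.34, with p = 0.005 in an exact two-sided permutation test within colony, the smallest p this design can give. The difference was 0.24 in SMGO and 0.45 in SMH. With FcoR72 included, the FcoR sum was 106353 ± 6288 in ampullae and 144528 ± 20891 in whole bodies (SD, n = 6 each), and its log2 difference of -0.43 gave an exact permutation p of 0.01. The share of FcoR72 was 23.6% in ampullae against 54.8% in whole bodies, and again the values did not overlap: 18.2% to 29.7% in ampullae and 46.3% to 67.3% in whole bodies. The exact two-sided permutation test on the share gave p = 0.005, the smallest possible, and 0.045 after adjustment over the 9 share comparisons.

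**Figure D3:**
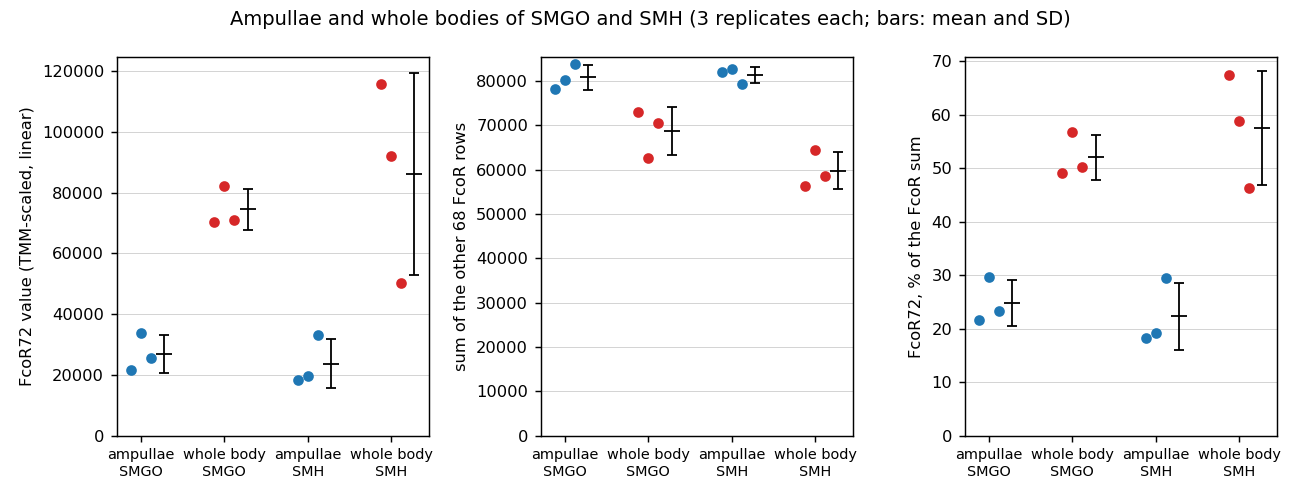
FcoR72 value, sum of the other 68 FcoR rows (both TMM-scaled, linear) and share of FcoR72 in the FcoR sum (%) in ampullae and whole bodies of SMGO and SMH, with 1 point per replicate and the mean and SD beside it. FcoR72 and its share are lower in all ampullae replicates than in any whole body of their colony, while the other FcoR rows sum to 78271 or more in ampullae and to 72975 or less in whole bodies.

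Among the other FcoR transcripts tested in this comparison, 8 of 42 were higher and 6 of 42 lower in ampullae. Over all 81 transcripts, 24.7% were higher and 18.5% lower. The median log2 difference of the other FcoR transcripts was -0.11, beside 0.01 over all 81. FcoR63 was higher by 1.20 ± 0.26 (limma, adjusted p = 0.00395) and FcoR4 by 1.02 ± 0.30 (limma, adjusted p = 0.0185). FcoR1, FcoR3, FcoR9 and FcoR46, which an earlier look at these data had listed as found in every colony, did not pass, with log2 differences between 0.01 and 0.32. In the class and colony means here, FcoR9 was at 0 in ALDH-negative individual 6, and FcoR46 in ALDH-negative individual 1. Of the Fuhc products, FuHc-Tm, the membrane-bound form, was lower in ampullae by more than FcoR72 was: its log2 difference was -6.27 ± 0.43 (limma, adjusted p = 1.03e-06). FuHc-Sec, the secreted form, was higher by 1.16 ± 0.27 (limma, adjusted p = 0.00554). Of the 19 signalling proteins, 3 were higher and 5 lower in ampullae, beside 24.7% and 18.5% of all transcripts.

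The BSA-sorted vascular cells could be compared with ampullae only with care. FcoR72 was 32805 in SB04, 39721 in SB05 and 54505 in SB06, and it is listed at 0 in SB07-09 and SB10-11, against 20831 to 30599 over the means of the 5 ampullae sources. Where FcoR72 was found at all, it lay above every ampullae mean. Single libraries overlapped: SB04 lay below SB825-FX replicate 2 at 33993, SMGO replicate 2 at 33856 and SMH replicate 3 at 33019. With all 5 libraries, the log2 difference was -5.42 ± 3.19 (limma, adjusted p = 0.276), and 1.37% of 73 transcripts were called. Without the 2 libraries at 0, it was 0.72 (limma, adjusted p = 0.0461), and 16% of 100 transcripts were called. That fit leaves out libraries in which FcoR72 itself is at 0, so its p is a description of the other 3. The share was 30.3% ± 5.48 in these 3 libraries against 23.1% ± 3.44 in ampullae (SD, n = 3 and 5), with an exact two-sided permutation p of 0.0714. With SB10-11 kept at 0%, the mean share was 22.7% in BSA libraries, with an exact permutation p of 0.984.

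FcoR72 differed between male genotypes. Over the 7 stages, the lowest, median and highest values were 21987, 26489 and 31156 in MADM, 39797, 43881 and 46790 in MDR, and 36384, 44223 and 76359 in M001. All MADM values lay below all values of MDR and M001, and those of MDR and M001 overlapped. With stage as a block, the F test gave an adjusted p of 9.18e-06 (limma), where 80.2% of 106 transcripts were called. MADM was lower than M001 by a log2 difference of -0.79 ± 0.10 (limma, adjusted p = 8.69e-06, with 21.7% of transcripts lower) and lower than MDR by -0.70 ± 0.10 (limma, adjusted p = 3.32e-05, with 25.5% lower). MDR and M001 differed by -0.10 ± 0.10 (limma, adjusted p = 0.458, with 54.7% called in either direction). Divided by the FF sum, which moves all transcripts down by 0.93 between MADM and M001, MDR was lower than M001 by -0.91 (limma, adjusted p = 6.87e-06), and MADM was lower than M001 by -1.72. The stages of a genotype are libraries of 1 genotype each, so these tests compare 3 genotypes and not a wider class.

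The other FcoR transcripts were called about as often as the whole table, both directions together, but their median difference lay further toward MADM. Between MADM and M001, 20 of the other 54 were higher in MADM and 9 lower, where 34.9% of all transcripts were higher and 21.7% lower. Between MADM and MDR the counts were again 20 and 9, where 31.1% of all transcripts were higher and 25.5% lower. Their median log2 difference was 0.69 for MADM minus M001, beside 0.13 over all transcripts. For MADM minus MDR it was 0.90, beside 0.18. FcoR48 was higher in MADM than in M001 by 1.90 ± 0.20 (limma, adjusted p = 8.31e-07). FcoR4 was higher by 3.63 ± 0.27 (limma, adjusted p = 2.41e-08). The sum of the other FcoR rows was 172436 ± 17571 in MADM, 100646 ± 5853 in MDR and 66150 ± 3729 in M001 (SD, n = 7 each). The groups did not overlap in this sum, which ran opposite to the share of FcoR72. The sum is part of the divisor of the share, so a larger sum lowers the share by definition at a given FcoR72 value.

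FcoR72 did not pass the test over the stages of the cycle. Its mean over the 3 genotypes was 38676 ± 11667 at stage A1, 36535 ± 8320 at A2, 51435 ± 22957 at B1, 37817 ± 8118 at B2, 36184 ± 9667 at C1, 37998 ± 10720 at C2 and 35947 ± 12159 at D (SD, n = 3 each). Stage B1 was the highest stage in all 3 genotypes, at 31156 in MADM, 46790 in MDR and 76359 in M001, while the next highest stage had 28600 in MADM, 44929 in MDR and 49742 in M001. With genotype as a block, the F test over stages gave an adjusted p of 0.712 (limma), where 0.926% of 108 transcripts were called. Stage A minus stage B was -0.21 ± 0.11 (limma, adjusted p = 0.582), and stage D minus stage C was -0.07 ± 0.13 (limma, adjusted p = 0.903), with 0.926% of transcripts called in each. The share was 26.9% at stage D against 27.1% at stage C, with an exact permutation p of 0.75, in a design where 0.25 is the smallest p.

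**Figure D4:**
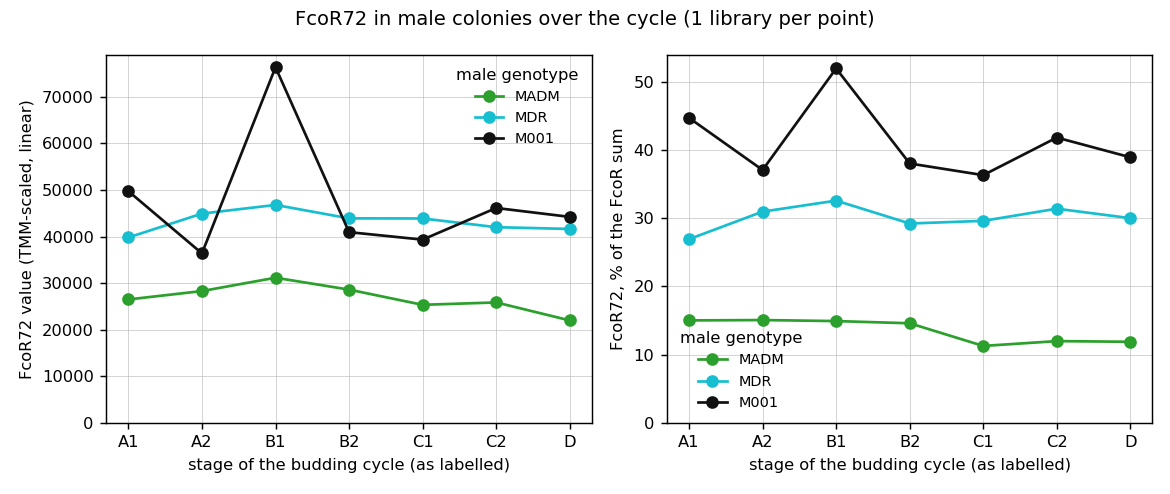
FcoR72 value (TMM-scaled, linear) and share of FcoR72 in the FcoR sum (%) over the 7 labelled stages in male colonies of MADM, MDR and M001, with 1 library per point. M001 at stage B1, at 76359 and 52.0%, stands above its other stages, and MADM lies lowest throughout in both panels.

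Male colonies had lower values than whole bodies, but the difference did not pass. The genotype means were 26815 in MADM, 43278 in MDR and 47589 in M001, against 165603, 74555, 86112 and 63784 in whole bodies of SKI, SMGO, SMH and SB825. The male means lay below all of the whole-body means. The log2 difference was -1.22 ± 0.36, with an adjusted p of 0.143 (limma), where 1.02% of 98 transcripts were called and 18 had an unadjusted p of at most 0.05. The share was 28.3% in male colonies against 51.7% in whole bodies, with an exact permutation p of 0.0857. Genotype and any other difference between these collections cannot be told apart, since no genotype is in both.

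Blood held more FcoR72 than IA6-positive cells. The blood individuals gave 83056, 80864 and 59476, against individual means of 41479 in 81C, 30153 in 81A, 19606 in 79C and 18803 in 79G for IA6-positive cells. All blood values lay above all IA6-positive means. The log2 difference was 1.55 ± 0.33 (limma, adjusted p = 0.0142), where 20.7% of 87 transcripts were higher and 11.5% lower in blood. The call was lost without blood FL3, at adjusted p = 0.0735, and without blood FLLC2, at adjusted p = 0.0849. The share was 50.5% ± 4.25 in blood against 26.0% ± 8.83 in IA6-positive cells (SD, n = 3 and 4), with an exact permutation p of 0.0286, the smallest possible, and 0.0857 after adjustment. The other FcoR rows summed to 72107 ± 1181 in blood and 78465 ± 6017 in IA6-positive cells (SD, n = 3 and 4). FcoR72 made up 8.33% to 10.1% of the whole table in blood, where it ranked 2 or 3 among all transcripts. The individuals differ between these classes.

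ALDH-positive cells had less FcoR72 than ALDH-negative cells in 3 of 4 individuals. The values were 14713 in the positive against 43244 in the negative fraction of individual 2B, and 10484 against 14795 in individual 6. They were 25464 against 40851 in individual 7, and 23348 against 22810 in individual 1. The log2 difference was -0.68 ± 0.29 with individual as a block, with an adjusted p of 0.433 (limma), where 0% of 89 transcripts were called and 9 had an unadjusted p of at most 0.05. With values divided by the FF sum, limma called 6 transcripts, and FcoR72 was not among them at an adjusted p of 0.169.

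The share of FcoR72 was lower in the ALDH-positive fraction of every individual. It was 13.3% against 36.9% in the negative fraction of individual 2B, 14.0% against 19.6% in individual 6, 15.8% against 29.95% in individual 7 and 17.6% against 25.9% in individual 1. The positive fractions did not overlap with the negative ones. With 4 individuals the exact permutation p was 0.125, the smallest that flipping fractions within individuals can give. The sum of the other FcoR rows was higher in the positive fraction of all 4, by 1.06-fold in individual 6 to 1.67-fold in individual 1. Of the other 46 FcoR transcripts tested, none passed in either direction, with a median log2 difference of 0.50 beside 0.06 over all transcripts.

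**Figure D5:**
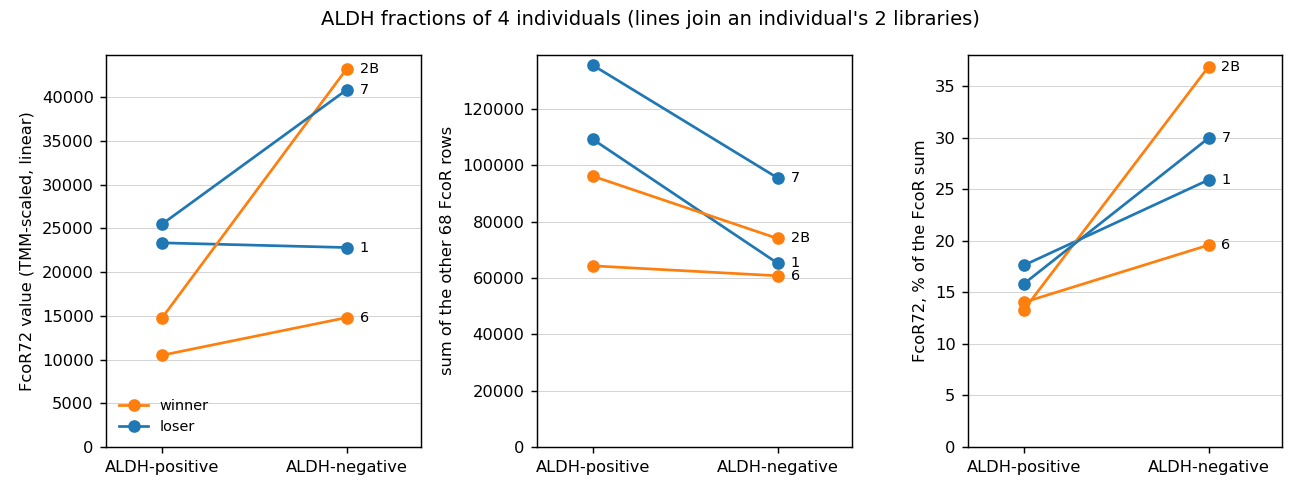
FcoR72 value, sum of the other 68 FcoR rows (both TMM-scaled, linear) and share of FcoR72 in the FcoR sum (%) in the ALDH-positive and ALDH-negative fractions of 4 individuals, with a line joining the fractions of each individual. The share is lower in the positive fraction of all 4, by 5.56 to 23.6 percentage points, and the other FcoR rows sum higher there.

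Winners and losers could be set side by side only as pairs of individuals. The mean of both fractions was 28979 and 12640 in the winners 2B and 6, against 33157 and 23079 in the losers 7 and 1, so the outcomes overlapped. The log2 difference was -0.62 ± 0.41 (limma, adjusted p = 0.975, with 0% of 100 transcripts called and 3 at an unadjusted p of at most 0.05). The share was 20.9% in winners and 22.3% in losers, with an exact permutation p of 1. In this design 0.333 is the smallest p, so no difference could have passed.

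FcoR72 did not pass the test between IA6-positive and IA6-negative cells of the same individuals. In 81A the positive libraries gave 32181 and 28124 against 34338 and 24477 in the negative ones, and in 81C they gave 34633 and 48326 against 30450 and 19914. The fractions overlapped in 81A and did not in 81C. The log2 difference was 0.39 ± 0.24 with individual as a block (limma, adjusted p = 0.742, with 1.3% of 77 transcripts called). The share was 33.3% in IA6-positive against 24.8% in IA6-negative libraries, with an exact permutation p of 0.167, where 0.0556 is the smallest. Libraries of 1 individual and fraction share their source, so these p-values measure the spread between libraries.

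The individual means of IA6-positive cells had a higher share of FcoR72 than ALDH-positive cells, which came from other individuals. The difference did not pass after adjustment. The mean share was 36.4% in 81C, 30.2% in 81A, 19.1% in 79G and 18.3% in 79C, against 13.3% to 17.6% in the 4 ALDH-positive fractions. Single libraries overlapped: IA6-positive 79C replicate 2 was at 12.9%, below every ALDH-positive fraction, and 79G replicate 2 at 17.5%. The exact permutation p was 0.0286, the smallest possible, and 0.0857 after adjustment. The values of FcoR72 overlapped: IA6-positive individuals lay between 18803 and 41479, and ALDH-positive ones between 10484 and 25464. The log2 difference was 0.54 ± 0.37 (limma, adjusted p = 0.527, with 2.22% of 90 transcripts called).

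Across 7 sample classes, with 1 mean per class and colony and only the positive sorted fractions, FcoR72 did not pass limma's F test with all BSA libraries (adjusted p = 0.145, with 15.9% of 126 transcripts called). Without the 2 BSA libraries at 0 it passed at an adjusted p of 3.95e-05 (limma), where 47.6% of transcripts were called. That fit leaves out libraries in which FcoR72 itself is at 0, so its p is a description of the remaining means. SMGO and SMH each gave a mean to both ampullae and whole bodies, and this sharing was not modelled.

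The transcripts whose levels were most like those of FcoR72 were signalling proteins and scarce FcoR transcripts. Likeness was measured with Spearman's rho on log2(value + 1) over the 32 means, for 83 transcripts found in at least 16 of them. The means share colonies, individuals and the scaling of the table, so rho is a description. The highest values were 0.73 for Sos, which activates Ras, 0.59 for SHIP, an inositol phosphatase that acts at inhibitory receptors in vertebrates, 0.57 for FcoR26 and 0.52 for FcoR58. The lowest were -0.60 for a yes-like tyrosine kinase, -0.56 for FuHc-Sec, -0.50 for FcoR23 and -0.47 for FF7. Taken relative to the signalling and Fuhc rows, the top 4 stayed the same 4 transcripts, and 3 of the bottom 4 did. With the 2 sparse BSA libraries kept, 3 of the top 4 and all of the bottom 4 stayed, with rho of 0.66 for Sos and -0.48 for the yes-like kinase.

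Sos moved over a narrower range than FcoR72: its class mean was 7414 in ampullae against 11751 in whole bodies, and 10748 in blood against 5598 in IA6-positive cells. SHIP averaged 10841 in ampullae against 16280 in whole bodies, and 15391 in blood against 10862 in IA6-positive cells. FcoR26 averaged 499.8 in whole bodies and 1106 in blood, and FcoR58 averaged 983 in whole bodies and 877 in blood. Unlike FcoR72, FcoR26 exceeded its whole-body mean in IA6-negative cells at 965, ALDH-negative cells at 767 and male colonies at 714. The ALDH-negative individuals ran from 0 to 3066. It lay below its whole-body mean in ampullae and in BSA-sorted, IA6-positive and ALDH-positive cells. FcoR26 and FcoR58 both lay far below FcoR72, which was at 97514 in whole bodies and 74465 in blood. Over the 45 other FcoR transcripts in this set, the median rho was -0.01, and 21 were above 0. Over the 19 signalling proteins it was 0.22, and 16 were above 0.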

How the data were processed

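RNA of Botryllus schlosseri was sequenced from poly-A libraries as paired ends, per the labels. The submitters' processing notes name the tools kallisto, RSEM and Trim Galore; versions are not given in the sources used here. The authors deposited 1 table of signal values, named as TMM expression per isoform and read here as TMM-scaled TPM; that it is TPM is inferred. The table has 158 columns of values: 77 match a labelled library, 81 match none and were not used, and the BSA library SB01-03 was not analysed. The labels name 2 RNA kits and 2 sequencing centres without assigning libraries, so no batch could be tested. How reads of near-identical FcoR copies or divergent alleles were assigned is not given in the sources used here.

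Log2(value + 1) was tested with limma 3.58.1 in R 4.3.3 (variance trend on, Benjamini-Hochberg adjustment at 0.05) for transcripts at a value of at least 1 in as many units as the smallest group holds; for pairs of genotypes or lines the adjustment ran over all transcripts and pairs. Shares and FcoR sums were compared with exact two-sided permutation tests, within colony, genotype or individual where both groups hold them, in Python 3.11.15 (numpy 2.4.6, scipy 1.17.1, pandas 2.3.3, matplotlib 3.10.9). Technical libraries of SMGO were averaged; IA6 libraries were averaged per individual except in the comparison of IA6 fractions. No 2 libraries held identical values (highest correlation 0.995). Tests were checked on simulated data.

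Alternatives were other pseudocounts, no filter, no trend, 3 other scalings, the replicate block and leaving out each unit; keeping the sparse BSA libraries in the class means was added after seeing the data. FcoR72, the gene lists and the named transcripts were chosen with earlier results of these data known. Named transcripts are FcoR72, the second FcoR of each class, the 4 most and 4 least alike, 6 FcoR listed earlier as widespread, and FuHc-Tm and FuHc-Sec. The FcoR that led or came next to FcoR72 in single libraries were named after their values were seen.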

Additional observations from a re-analysis of the deposited data

Results flagged for a closer look

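In male M001, FcoR72 at stage B1 lay far from the other 6 stages: its value was 76359 (76358.721 in the table), the next highest was 49742, and the gap made up 0.666 of the whole range of the 7 values. Without stage B1 the M001 mean was 42794 ± 4857 (SD, n = 6). Of 18 checks of this kind, over 9 groups for the value and the share, this was the only 1 past Dixon's 95% limit, and chance flags about 1 in 20. The share of FcoR72 at that stage, 52.0%, did not pass. The sum of the other FcoR rows was 70595 in that library, beside 61486 to 69361 at the other stages of M001. The library is the sole one of its genotype and stage, so its value has no replicate.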

How the results depend on the processing

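Of the comparisons of FcoR72, the lower level in ampullae than in whole bodies kept its direction and its call in all alternatives run, with log2 differences of -2.03 to -1.38 under other settings and -1.80 to -1.53 without single units. MADM against M001 and against MDR also kept theirs; MDR minus M001 did not, at -0.91 with the FF sum (adjusted p = 6.87e-06) and at 0.0032 without stage B1. With the 2 BSA libraries at 0 left out, the BSA difference from ampullae reversed to 0.72 (16 calls against 1), its share difference to 7.20 percentage points, and the spread over classes, now 1.09, passed (60 calls against 20). FcoR72 itself is at 0 in the libraries left out, so these runs describe only the remaining ones. As a log2 ratio to the other FcoR rows, which drops libraries at 0, the BSA share difference was 0.55. Over FcoR rows found in every library, the share at stage D minus C was 0.56 points. Divided by the FF sum, SB825-FX minus SB825-FDA was 0.88, minus SMGO 1.11 and minus SMH 1.22, and all passed, as did SB825-FX minus SMH divided by the sum of the table, at 0.78 (adjusted p = 0.0457). Division by the FF sum drops SB07-09, whose FF sum is 0, and moves all transcripts by between -0.93 and 0.41 in the comparisons checked. Between ampullae sources, SB825-FEA minus SMGO turned to 0.43 (sum of the table), 0.16 (signalling and Fuhc rows), 0.53 (FF sum) and 0.070 (technical libraries apart), SB825-FDA minus SMH to 0.033 and 0.34, and SB825-FDA minus SMGO to 0.22. No pair named in the last sentence passed in these settings. The cause was not tested.

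Leaving out 1 unit at a time gave 1.11 to 1.73 for whole bodies, 0.47 to 0.62 for ampullae sources, 1.39 to 1.78 for blood against IA6-positive cells (11 to 33 calls against 28, and 17 without the trend), and -0.13 to 0.0047 for stage D minus C. Shares ranged between -4.40 and 7.20 points for BSA against ampullae, -0.32 and 0.058 for stage D minus C, and -5.52 and 2.75 for winners minus losers. Pairs ranged between -0.040 and 0.58 for SMGO minus SB825, -0.47 and 0.13 for SMGO minus SMH whole bodies, -0.16 and 0.17 for SB825-FEA minus SMGO ampullae, -0.30 and 0.13 for SB825-FDA minus SMH, and -0.17 and 0.0032 for MDR minus M001. Without 1 winner or loser an arm has 1 individual, assumed to vary like the others.

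With the replicate number as a block, the values were 1.46 for whole bodies (limma, adjusted p = 0.00747), 0.56 for ampullae sources (0.228), -1.66 for ampullae against whole bodies (0.000699) and 0.39 for IA6 fractions (0.703). Without the individual as a block, the ALDH difference was -0.68 (0.826). The pairing changed no call. Same-numbered libraries correlated at -0.29 to 0.16 in whole bodies and -0.36 to 0.37 in ampullae, and at 0.23 to 0.33 between IA6 fractions, where 2 libraries per individual and fraction mirror each other, so that the numbers are not shown to pair the libraries.

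Depth is unknown, so how far low FcoR values are limited by it could not be given; FcoR72 itself lay at 10484 or more wherever it was found.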
